A study of Drosophila melanogaster with 15 samples.

Results

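Wing imaginal discs with RNAi against avl were compared at the end and at the start of a tumour course, 168 h and 92 h after egg deposition. The comparison rests on 6 of the 15 arrays of the series, 3 at each age, chosen by genotype and age in the labels. A further 3 avl-RNAi arrays at 116 h describe the path between those ages, and 6 control arrays (3 at 116 h and 3 at 92 h) show how discs without the knockdown changed. The avl-RNAi larvae were w- and carried elav-GAL80/+ together with 1 copy of a chromosome bearing both Rn-GAL4 and UAS Avl RNAi. The control larvae were also w- with elav-GAL80/+ and 1 copy of Rn-GAL4, without the RNAi transgene. Both came from a w1118 background and were staged from egg collections of 2 h. Rn-GAL4 is active mainly in the wing pouch, so each avl-RNAi disc also held cells without the hairpin RNA, and elav-GAL80, carried by both genotypes, blocks GAL4 in neurons. The labels call the avl-RNAi discs neoplastic at every age, give no control older than 116 h, and do not say how many discs made a sample. The design text speaks of separate samples without naming separate crosses, so the spread between arrays may in part be technical.

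A wing imaginal disc is an epithelial sac of the larva that becomes the wing and the notum at metamorphosis, when pulses of the steroid ecdysone end larval growth. The avl gene, now named Syx7, encodes a syntaxin that lets vesicles fuse with early endosomes. Disc cells without it keep receptors and polarity proteins that would have been degraded, overproliferate and lose their layered order, which is called neoplastic growth. Overgrowing discs secrete the relaxin-like hormone Ilp8, which delays the ecdysone pulse and so lengthens larval life.

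Values are log2 expression on Affymetrix arrays, and a gene was called where the Benjamini-Hochberg adjusted p of limma's moderated test was under 0.05. Differences are 168 h minus 92 h unless stated otherwise, with their standard error for 3 arrays in each group. Whole arrays correlated at 0.993 to 0.998 within groups and at 0.965 to 0.975 between 168 h and 92 h. No detection calls came with the values, so it is not known which genes near the array medians of 4.74 to 4.79 were above background. Syx7 was not analysed here, so the knockdown was not checked. Wing disc markers were present at both ages, and 9 of them averaged 9.02 ± 0.04 at 168 h and 8.93 ± 0.15 at 92 h (SD, n = 3 each).

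Transcripts of other larval tissues also differed between arrays. The mean of 19 muscle genes was 6.12, 6.04 and 5.89 on the 168 h arrays, against 7.98, 7.87 and 8.27 at 92 h. The mean of 27 gut genes was 4.50, 4.48 and 4.58 at 168 h, against 6.43, 5.47 and 5.67 at 92 h. Both tissue means were lower on every 168 h array than on any 92 h array, and muscle took an intermediate value of 7.28 ± 0.22 at 116 h (SD, n = 3). The mean of 12 fat body genes was 7.15, 7.42 and 6.99 at 168 h, against 8.08, 8.36 and 7.35 at 92 h, and these groups overlapped. Haemocyte markers averaged 6.35 ± 0.06 at 168 h and 6.69 ± 0.03 at 92 h, and 1 array at 116 h, replicate 3, stood at 7.40. Among control arrays, 92 h replicate 3 had a gut mean of 4.81, against 6.06 and 6.03 on the other two, and 116 h replicate 2 had 5.86, against 4.72 and 4.66. In such bulk samples fewer cells of a type and less RNA per cell cannot be told apart.

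Over the whole course 4702 of 11982 genes were called, which is 39.2% of those tested. Of these, 2289 genes (19.1% of all) were higher and 2413 (20.1%) lower at 168 h. A change of at least 2-fold was reached by 311 higher genes (2.6%) and 258 lower genes (2.15%). At an unadjusted p under 0.05 there were 5457 genes. The split between directions moved with the scaling. It was 1776 higher and 2794 lower with each array centred on its median, and 2822 higher and 1819 lower with each array centred on its cytosolic ribosomal protein genes. With the gut, muscle and fat body means as covariates only 26 genes were called, 17 higher and 9 lower. The muscle mean lay almost wholly between the groups (95.3% of its variance), and the median standard error with the covariates was 0.34, against 0.074 without them. How far the tissue means account for single genes was not tested.

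The largest rise belonged to ImpE2, an ecdysone-inducible gene of imaginal discs. Its values were 12.54, 12.55 and 12.05 at 168 h, against 4.26, 6.11 and 5.29 at 92 h, a 143-fold difference (7.16 ± 0.36, adjusted p = 7.88e-09). Every 168 h array lay more than 5 log2 units above every 92 h array. ImpE3, another such gene, had 9.49, 9.61 and 9.08 at 168 h, against 5.90, 6.23 and 6.09 at 92 h (3.32 ± 0.18, adjusted p = 1.69e-08). Spn43Aa, a serine protease inhibitor, had 10.36, 10.50 and 9.93 at 168 h, against 5.04, 5.88 and 5.32 at 92 h (4.85 ± 0.23, adjusted p = 5.29e-09). The elongation factor isoform eEF1alpha2 rose by 5.35 ± 0.22 to 9.99, 9.81 and 9.75, against 4.54, 4.52 and 4.43 at 92 h (adjusted p = 1.07e-09). For these genes no array of one age reached the level of the other, a separation that the rule for naming the largest rises required.

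Of 28 measured genes of the ecdysone response 15 rose and 4 fell, against 19.1% and 20.1% of all genes. The same all-gene shares stand beside every later count of list members with a net change. Their median difference was 0.35, against -0.01 over all genes. Cyp18a1, the P450 enzyme that inactivates ecdysone, had 9.06, 9.08 and 8.57 at 168 h, against 5.38, 5.40 and 5.60 at 92 h (3.44 ± 0.14, adjusted p = 1.2e-09). The zinc finger gene br, which acts at the start of metamorphosis, rose by 0.84 ± 0.11 (adjusted p = 3.95e-05). Edg91, a cuticle gene of the same list, fell by 2.57 to a mean of 5.69, against 8.26 at 92 h (adjusted p = 4.43e-08). EcR, the ecdysone receptor, and its partner usp differed by 0.10 and 0.06 and were not called. Both were looked up after the values were known.

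Genes that build or remodel chitin and cuticle moved in both directions. Of 104 cuticle protein genes 15 rose and 31 fell, against 19.1% and 20.1% of all genes, with a median of -0.07. Among the rises, Cpr64Ac had 10.54, 10.37 and 10.27 at 168 h, against 5.67, 5.61 and 5.78 at 92 h, a 26.2-fold difference (adjusted p = 1.16e-12). Cpr49Ac rose by 4.35 ± 0.32 and Cpr65Ec by 3.72 ± 0.14. The chitinase gene Cht5 had 9.47, 9.60 and 9.50 at 168 h, against 5.69, 6.05 and 5.49 at 92 h (3.78 ± 0.15, adjusted p = 1.07e-09). Among the falls, the larval cuticle gene Lcp9 had 4.80, 4.57 and 4.90 at 168 h, against 9.39, 10.46 and 9.98 at 92 h (-5.19 ± 0.47, adjusted p = 1.48e-06). Cpr47Eg fell by 5.01 to 4.76, 4.75 and 4.71, against 9.87, 9.12 and 10.26 at 92 h (adjusted p = 3.54e-09). Lcp65Ac and Twdlbeta, a Tweedle family cuticle gene, had differences of -3.40 ± 0.20 and -2.98 ± 0.14. The family members are similar in sequence, so a probe set may respond to more than 1 of them.

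**Figure D1:**
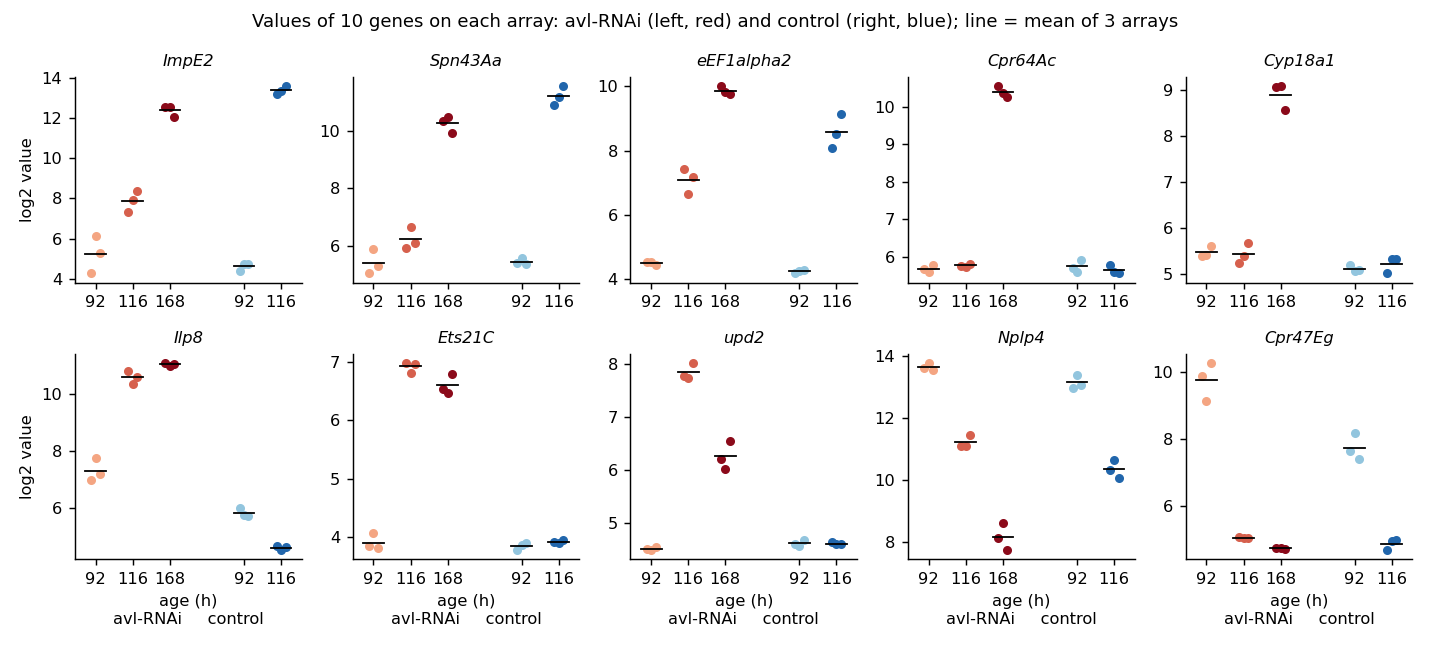
Log2 values (vertical axis, one scale per gene) of 10 genes on each array by age in hours, with avl-RNAi discs in red on the left and control discs in blue on the right; points are arrays and lines are means of 3. ImpE2 stood at 12.05 to 12.55 in avl-RNAi discs at 168 h, while Cpr64Ac and Cyp18a1 were high in that group alone.

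Several named genes of JNK signalling and its targets were higher at 168 h, though not the whole of either list. Ilp8 had 11.11, 11.01 and 11.08 at 168 h, against 6.99, 7.75 and 7.20 at 92 h, a 13.5-fold difference (3.76 ± 0.16, adjusted p = 1.46e-09). Ets21C, a transcription factor that acts downstream of the kinase JNK, had 6.54, 6.47 and 6.80 at 168 h, against 3.85, 4.07 and 3.82 at 92 h (2.69 ± 0.09, adjusted p = 1.94e-10). All arrays at 168 h lay above all at 92 h for both genes. For Ilp8 the rule for naming the largest rises required this, and the groups lay apart, in either direction, for 49.8% of all genes. The phosphatase gene puc, a JNK target that limits the pathway, rose by 1.22 ± 0.10, and kay, the fly Fos gene, rose by 1.46 ± 0.12. Another probe set of kay moved by 0.02. Pvf1, a ligand of the PDGF and VEGF receptor family, had 7.30, 7.22 and 7.39 at 168 h, against 5.15, 4.95 and 5.11 at 92 h (2.23 ± 0.11, adjusted p = 5.08e-09).

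Of 14 JNK-responsive genes 10 rose and 4 fell, with a median of 0.96, and of 13 genes of the JNK pathway itself 7 rose and none fell, with a median of 0.25. The kinase bsk, which is JNK, differed by -0.05 and its ligand egr by -0.28, and neither was called. These 2 were chosen after their values were seen. Of 12 JAK/STAT genes 8 rose and 2 fell. The ligand genes upd1 and upd2 rose by 1.34 ± 0.11 and 1.75 ± 0.11. The receptor gene dome rose by 0.50 ± 0.05 and the phosphatase gene Ptp61F, which restrains the pathway, by 0.59 ± 0.06. The value of upd1 was 8.59, 8.74 and 8.76 at 168 h, against 7.57, 7.14 and 7.38 at 92 h (adjusted p = 9.43e-07). The larval progenitor factor chinmo had 10.04, 9.95 and 9.88 at 168 h, against 9.42, 9.25 and 9.54 at 92 h (0.56 ± 0.11, adjusted p = 0.00131), and its 3 probe sets gave 0.14 to 0.74.

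Of 20 BMP and activin genes 17 rose and none fell, with a median of 0.39. The activin ligand gene Actbeta had 6.54, 6.08 and 6.54 at 168 h, against 3.53, 3.37 and 3.53 at 92 h (2.91 ± 0.10, adjusted p = 2.8e-10). A second activin ligand gene, daw, had 7.45, 7.49 and 6.88 at 168 h, against 5.32, 5.13 and 4.61 at 92 h (2.25 ± 0.19, adjusted p = 8.36e-07). The inhibitory SMAD gene Dad rose by 0.63 ± 0.07. Of 14 Wnt and Hedgehog genes 11 rose and none fell, and of 10 EGF receptor pathway genes 8 rose and none fell, with medians of 0.33 and 0.38. The largest of these shifts in each list were 0.82 ± 0.09 for the Hedgehog receptor gene ptc and 0.58 ± 0.05 for the EGF ligand gene spi.

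Of 17 insulin and growth control genes 8 rose and none fell. ImpL2, a secreted protein that binds insulin-like peptides and blunts their action, had 12.27, 12.03 and 11.86 at 168 h, against 9.20, 10.10 and 9.78 at 92 h (2.36 ± 0.20, adjusted p = 1.01e-06). The insulin receptor gene InR had 9.50, 9.23 and 9.22 at 168 h, against 7.36, 7.59 and 7.68 at 92 h (1.78 ± 0.11, adjusted p = 3.7e-08). Both genes separated the ages without overlap, as did 49.8% of all genes in either direction. InR remained called with the tissue covariates.

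Genes that pattern the wing did not all move alike. Of 26 pouch and hinge genes 16 rose and 2 fell, with a median of 0.34. The T-box gene Doc2 and the POU gene pdm2 rose by 1.34 ± 0.09 and 1.23 ± 0.09, and bi (omb), a target of BMP signalling, by 0.44 ± 0.05. The wing selector vg had 9.075, 8.999 and 9.260 at 168 h, against 9.661, 9.881 and 9.996 at 92 h (-0.73 ± 0.09, adjusted p = 3.19e-05). Dll, a homeobox gene of the distal wing, had 8.09, 7.99 and 7.99 at 168 h, against 8.76, 9.08 and 9.08 at 92 h (-0.95 ± 0.13, adjusted p = 6.32e-05), and its 3 probe sets ranged from -1.26 to -0.27. No array of either age overlapped for vg or Dll. The value of rn, whose regulatory region drives the GAL4 line, rose by 0.61 ± 0.09, and its other probe set moved by less than 0.01. The knot gene kn rose by 1.09 ± 0.14, though its other probe set gave -0.08.

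Genes that time or place later disc structures gave mixed results. Of 9 temporal factors 5 rose and none fell, and of 13 juvenile hormone genes 7 rose and 2 fell. Kr-h1, the zinc finger gene induced by juvenile hormone, had 9.67, 9.65 and 9.42 at 168 h, against 8.44, 8.92 and 8.81 at 92 h (0.86 ± 0.13, adjusted p = 8.85e-05). Of 11 notum genes 4 rose and none fell, and the BTB gene bab2 rose by 1.73 ± 0.13. Of 27 proneural and sensory organ genes 12 rose and 5 fell. The asymmetric division gene insc had 6.59, 6.32 and 6.58 at 168 h, against 4.80, 4.83 and 4.77 at 92 h (1.70 ± 0.08, adjusted p = 5.83e-09). The Notch target E(spl)m3-HLH had 9.36, 9.37 and 9.43 at 168 h, against 10.10, 10.22 and 10.13 at 92 h (-0.76 ± 0.05, adjusted p = 1.62e-07). The FGF ligand gene bnl rose by 1.13 ± 0.07, while another of its probe sets moved by 0.11. The Osiris gene Osi2 had 6.98, 6.99 and 7.16 at 168 h, against 4.42, 4.54 and 4.65 at 92 h (2.51 ± 0.11, adjusted p = 2.3e-09).

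Lists of the Hippo growth pathway, cell death, chaperones, immunity and glycolysis had medians between -0.01 and 0.18. Of 16 Hippo genes 7 rose and none fell, with the coactivator gene yki at 0.37 ± 0.05 and the pathway inhibitor Rassf at 0.64 ± 0.05. Of 13 apoptosis genes 8 rose and 1 fell. The initiator caspase gene Dronc had 9.86, 9.86 and 9.81 at 168 h, against 8.99, 9.06 and 8.92 at 92 h (0.85 ± 0.06, adjusted p = 1.09e-07), and p53 rose by 0.61 ± 0.07 with a second probe set at 0.03. The Bcl-2 family gene Buffy was the 1 that fell, by 0.75. Of 12 heat shock and chaperone genes 4 rose and 4 fell, and 3 changed at least 2-fold. These were the small heat shock genes Hsp26 and Hsp27, which rose by 1.05 ± 0.09 and 1.14 ± 0.10, and l(2)efl, which fell by 2.47. Of 29 antimicrobial and Toll or Imd genes 6 rose, a share near the 19.1% of all genes, and none fell, with the antimicrobial peptide gene Def at 1.06 ± 0.17. Of 15 glycolysis genes 5 rose and 1 fell, with Pfk, the phosphofructokinase gene, at 0.92 ± 0.09 and Gapdh1 as the gene that fell, by 0.27.

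The falls of machinery genes were small per gene and shared by most members of their lists. Of 69 mitochondrial ribosomal protein genes 64 fell and none rose, with a median of -0.48. The list mean was 8.98, 9.01 and 9.07 at 168 h, against 9.51, 9.43 and 9.52 at 92 h. The largest of the 4 named members, mRpL20, had 9.08, 9.03 and 9.09 at 168 h, against 9.93, 9.85 and 9.98 at 92 h (-0.85 ± 0.05, adjusted p = 4.7e-08). Of 72 oxidative phosphorylation genes 51 fell and none rose, with a median of -0.41, including the complex I gene ND-SGDH at -0.82 ± 0.05. Cytosolic ribosomal protein genes, in contrast to the mitochondrial ones, had a median of -0.03, and 2 of 41 rose and 7 fell. With arrays centred on those cytosolic genes, all 4 named mitochondrial ribosomal and all 4 named oxidative phosphorylation genes were still called lower. These members had been named for the smallest adjusted p in their lists. The cytosolic list mean was 11.81 at 168 h and 11.86 at 92 h, so the centring could hardly undo falls of their size. It does not show how the other members behaved.

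Of 30 DNA replication genes 26 fell and 1 rose, with a median of -0.34. Prim1, a primase subunit gene, had 7.75, 7.81 and 7.91 at 168 h, against 8.50, 8.43 and 8.38 at 92 h (-0.62 ± 0.06, adjusted p = 1.44e-06), and the licensing factor gene dup, the fly Cdt1, fell by the same 0.62. Of 28 mitosis genes 14 fell and 4 rose, with Nuf2, a kinetochore gene, at -0.58 ± 0.06. Of 40 proteasome genes 24 fell and 2 rose, with Prosalpha5 of the core particle at -0.51 ± 0.04. The list means of replication and proteasome genes on the 168 h arrays all lay below those on the 92 h arrays, as the plot of list means by array shows.

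**Figure D2:**
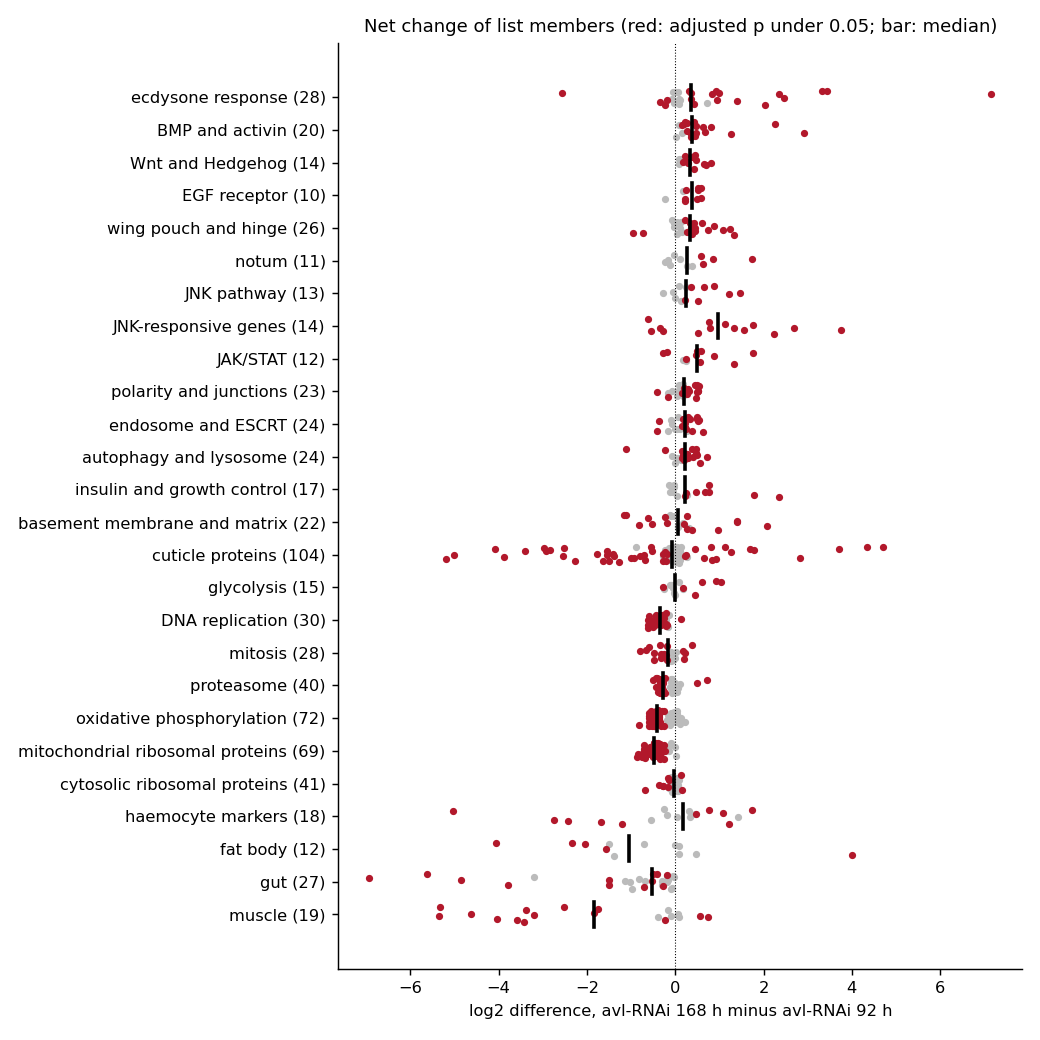
Log2 difference (168 h minus 92 h, horizontal axis) of every measured member of 26 gene lists in avl-RNAi discs, with list sizes in brackets; red points were called at adjusted p under 0.05 and black bars are medians. The mitochondrial ribosomal proteins sit together left of 0 with a median of -0.48, while cuticle, muscle and gut genes spread over several log2 units.

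The largest single falls were mostly of muscle, gut and cuticle genes. Of 19 muscle genes 12 fell and 2 rose, with a median of -1.84. Mlc1, a myosin light chain gene, had 5.46, 5.76 and 5.25 at 168 h, against 10.86, 10.45 and 11.12 at 92 h (-5.32 ± 0.26, adjusted p = 5.83e-09). The tropomyosin gene Tm2 fell by 4.63 ± 0.25 and the muscle LIM protein gene Mlp60A by 5.36 ± 0.18, though another probe set of Mlp60A gave 0.16. Of 27 gut genes 12 fell and none rose, with a median of -0.53. The Jonah protease gene Jon65Aiv had 4.56, 4.25 and 5.20 at 168 h, against 13.31, 10.30 and 11.16 at 92 h (-6.92 ± 1.96, adjusted p = 0.0121). The 92 h replicate 1 was highest for Jon65Aiv and for the related Jon65Aiii, yip7 and LysS. Without that array the adjusted p was 0.0813 for Jon65Aiii, 0.123 for yip7 and 0.11 for LysS. Jon65Aiii also lost its call without 168 h replicate 2 (adjusted p = 0.0519), and yip7 and LysS without any single one of 4 other arrays. Acbp4, an acyl-CoA binding protein gene, had 4.56, 4.35 and 4.74 at 168 h, against 11.84, 9.09 and 9.69 at 92 h. It was at 5.99 on the control 92 h replicate 3, the array with a low gut mean, against 11.08 and 10.39 on the other control arrays of that age.

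Fat body genes were more often lower than higher, while blood cell genes were split. Of 12 fat body genes 1 rose and 4 fell, with a median of -1.04. The lipid carrier gene apolpp had 6.79, 7.16 and 6.39 at 168 h, against 11.31, 11.57 and 9.65 at 92 h (-4.06 ± 0.68, adjusted p = 0.000289). Fbp1, a fat body gene that responds to ecdysone, rose by 4.01 ± 0.81, and its values at 168 h ranged from 7.76 to 10.04. The storage protein gene Lsp2 had 9.21, 9.93 and 9.08 at 168 h, against 11.54, 12.60 and 10.18 at 92 h (-2.03 ± 0.64, adjusted p = 0.0224), and it was not called when any of 4 single arrays was left out (adjusted p up to 0.103). Of 18 haemocyte markers 5 rose and 5 fell. The largest change among them was of Nplp2, with 6.14, 5.26 and 5.72 at 168 h, against 11.03, 10.82 and 10.35 at 92 h. It fell by 5.03 ± 0.33 (adjusted p = 8.94e-08). The marker atilla was also called lower, with differences of -1.76 to -1.57 when single arrays were left out. The prophenoloxidase genes of crystal cells, PPO1 and PPO2, fell by 2.75 ± 0.42 and 2.42 ± 0.42. PPO1 had 6.44, 6.26 and 6.40 at 168 h, against 9.02, 9.07 and 9.26 at 92 h. The plasmatocyte receptor genes eater and NimC1, chosen after their values were seen, had differences of 1.74 and 1.08 and were called higher.

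**Figure D3:**
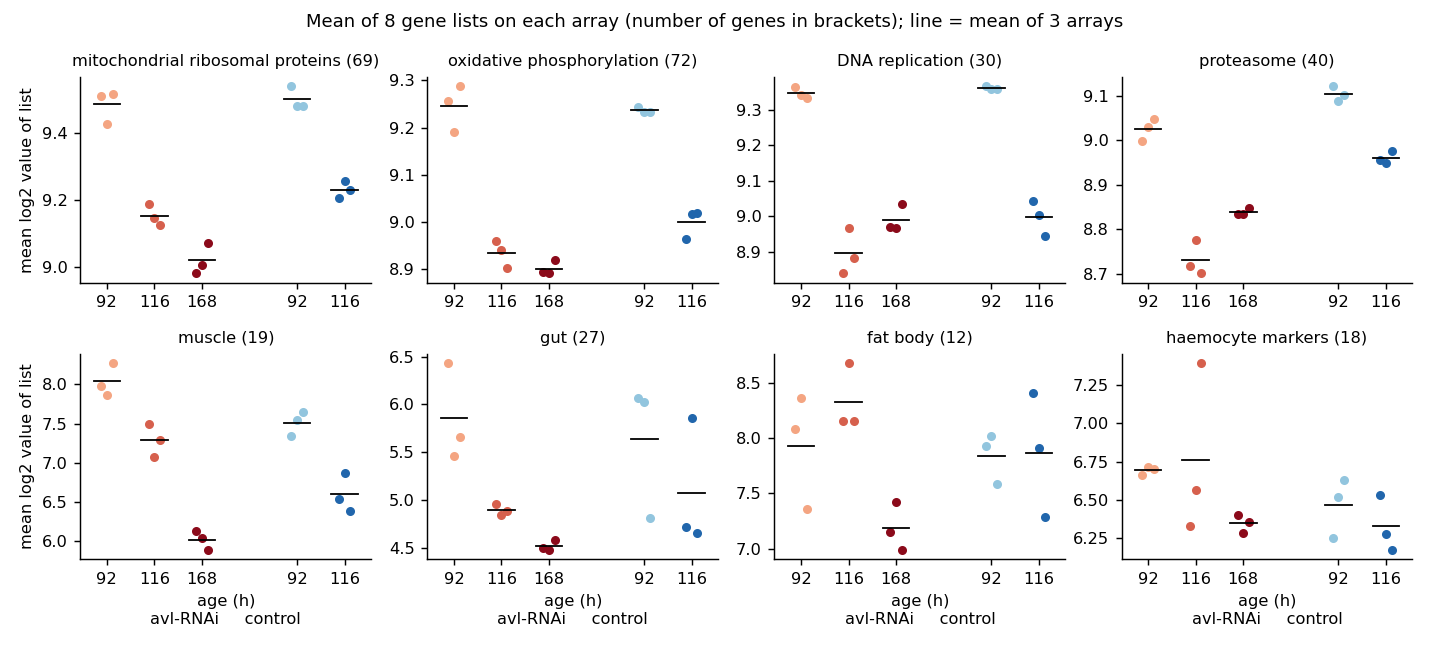
Mean log2 value (vertical axis, one scale per list) of 8 gene lists on each array by age in hours, with avl-RNAi discs in red on the left and control discs in blue on the right; points are arrays, lines are means of 3 and brackets give list sizes. The muscle mean was 5.89 to 6.12 at 168 h and 7.87 to 8.27 at 92 h in avl-RNAi discs, and the gut mean of 2 control arrays stood apart from their groups.

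Matrix and adhesion genes moved apart from each other. Of 22 genes of the basement membrane and its receptors 8 rose and 7 fell. SPARC, a collagen-binding matrix protein gene, had 9.74, 9.60 and 9.88 at 168 h, against 10.52, 10.60 and 10.55 at 92 h (-0.81 ± 0.09, adjusted p = 1.25e-05). The perlecan gene trol fell by 0.61 ± 0.06, but its 8 probe sets ranged from -1.03 to 0.18. Mp, a collagen gene, rose by 2.07 ± 0.14 and scb, an integrin subunit gene, by 1.40 ± 0.16. Of 23 polarity and junction genes 13 rose and 2 fell, and crb, whose product marks the apical membrane, had 10.75, 10.77 and 10.71 at 168 h, against 10.19, 10.30 and 10.19 at 92 h. Of 24 endosome and ESCRT genes 13 rose and 2 fell, with ALiX and TSG101, which act in sorting at endosomes, at 0.64 ± 0.05 and 0.53 ± 0.04. Of 24 autophagy and lysosome genes 17 rose and 2 fell, with Lamp1 at 0.48 ± 0.05.

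Several genes that were still above 6.53, the mean of all genes, at 168 h also fell sharply. The neuropeptide-like precursor gene Nplp4 had 8.12, 8.62 and 7.74 at 168 h, against 13.62, 13.78 and 13.56 at 92 h, a 45.1-fold lower level (-5.49 ± 0.20, adjusted p = 4.57e-10). The iron carrier gene Tsf1 fell by 2.33 ± 0.11, although another of its probe sets gave -0.05. The small heat shock gene l(2)efl fell by 2.47 ± 0.20, with its probe sets between -2.47 and -0.21. Idgf6, a chitinase-like growth factor gene, had 7.92, 7.93 and 8.04 at 168 h, against 9.86, 9.96 and 9.49 at 92 h (-1.81 ± 0.16, adjusted p = 1.03e-06). The P450 gene Cyp310a1 had 7.23, 7.10 and 7.21 at 168 h, against 8.83, 9.84 and 9.44 at 92 h (-2.19 ± 0.26, adjusted p = 1.63e-05). The rule that named these genes required all 168 h arrays to lie below all 92 h arrays, so their separation is no separate result. Groups lay apart, in either direction, for 49.8% of all genes.

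The 116 h arrays show when the change took place. The first leg (116 h minus 92 h) had 4247 called genes, 35.4% of those tested, with 14.8% higher and 20.6% lower. The second leg (168 h minus 116 h) had 3237, or 27.0%, with 15.5% higher and 11.5% lower. Both legs share arrays with the net change and with each other, so their calls are not independent of it. Of the 2289 genes with a net rise, 701 were called higher in the first leg and not called in the second. The reverse held for 700, and 257 were called higher in both. Another 220 were called higher and then lower, 110 lower and then higher, and 301 in neither leg. Of the 2413 genes with a net fall, 1210 were called lower in the first leg and not called in the second. The reverse held for 372, and 242 were called lower in both. Another 171 were called lower and then higher, 57 higher and then lower, and 361 in neither leg. A further 333 genes rose and then fell, and 473 fell and then rose, without a net call. Among net rises of at least 2-fold, the median gene had covered 54.7% of its change by 116 h (quartiles 13.7% and 89.3%), and 64 of 311 had already passed their 168 h level.

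**Figure D4:**
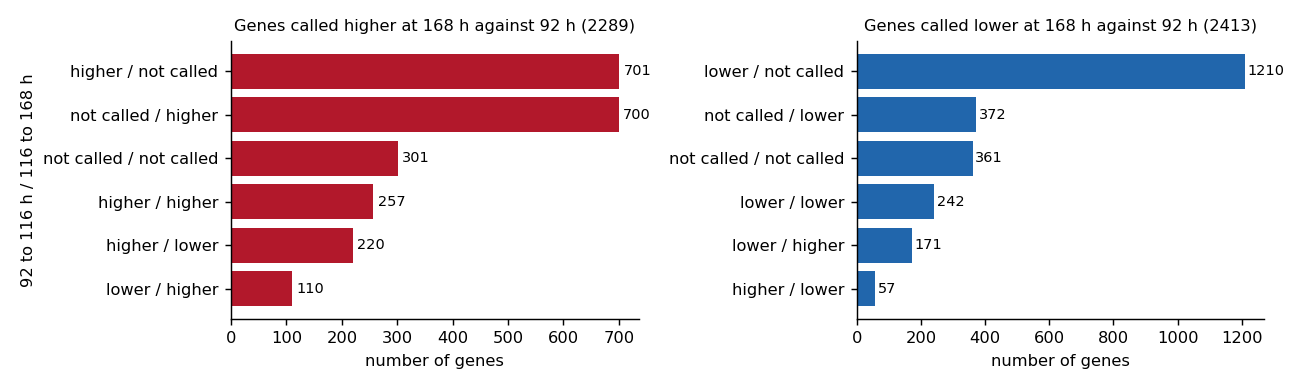
Number of genes (horizontal axis) with a net rise (left, 2289 genes) or net fall (right, 2413 genes) between 92 h and 168 h in avl-RNAi discs, by the calls in the first and second leg. Of the rises, 701 were called higher in the first leg with no call in the second, and 700 the reverse. Of the falls, 1210 were called lower in the first leg with no call in the second.

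Several of the named signalling genes had risen by 116 h. Ilp8 had 10.81, 10.39 and 10.63 at 116 h, which was 87.8% of its net change. At 116 h upd2 stood at 7.78, 7.74 and 8.03, above both its 92 h values of 4.51, 4.48 and 4.54 and its 168 h values of 6.21, 6.02 and 6.56. The same order, highest at 116 h, held for the means of Ets21C, puc, Pvf1, upd1 and chinmo, all called in both legs. Of the 14 JNK-responsive genes 12 were called higher and none lower in the first leg, and 3 higher and 9 lower in the second. The Tweedle gene TwdlE had 10.64, 10.72 and 10.51 at 116 h, against 4.01, 4.86 and 4.66 at 92 h, and lay at 7.48, 7.24 and 7.29 at 168 h. Tdc1, a tyrosine decarboxylase gene, followed the same path with 9.75, 9.17 and 9.50 at 116 h and a net rise of 2.10 ± 0.12. Osi6, of the Osiris family, had 8.85, 6.15 and 5.86 at 116 h, where replicate 1 stood well above the others, and was not called over the whole course (0.73 ± 0.55, adjusted p = 0.334), although it was called in a fit of the 168 h and 92 h arrays alone (adjusted p = 0.0335).

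Other named genes rose mainly in the second leg. Actbeta stayed at 3.47, 3.39 and 3.43 at 116 h, and its second leg was 2.96 against -0.05 in the first. Cpr64Ac and Cyp18a1 had likewise covered 1.91% and -0.88% of their net change by 116 h. Of the BMP and activin list 13 of 20 were called higher in the second leg and 4 in the first. ImpE2 covered 36.8% of its rise by 116 h and Spn43Aa had a first leg of 0.83 against 4.02 in the second. Of the genes that fell and then rose, lama, Jhbp7 and mnd had the largest smaller leg among genes with more than a number for a name. Jhbp7 belongs to the juvenile hormone binding protein family and mnd encodes an amino acid transporter. At 116 h mnd stood at 7.44, 7.76 and 7.58, below its 92 h values of 9.07, 9.06 and 9.09 and its 168 h values of 10.18, 10.24 and 9.66. The lamina ancestor gene lama stood at 6.62, 7.33 and 7.40 at 116 h. Its 168 h values of 8.69, 8.83 and 8.64 overlapped its 92 h values of 8.95, 8.77 and 8.90 (net -0.15 ± 0.18, not called).

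The machinery falls lay mostly in the first leg. Replication genes had a median first leg of -0.43 and a second leg of 0.08, and oxidative phosphorylation genes had -0.36 and -0.05. Proteasome genes turned, with 26 of 40 called lower in the first leg and 11 higher in the second. Mitochondrial ribosomal proteins fell in both, by medians of -0.34 and -0.13. Fat body genes had a mean of 8.33 ± 0.30 at 116 h (SD, n = 3), and 7 of 12 were called lower in the second leg.

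Control discs changed over a shorter span, 24 h against 76 h, and share no array with the avl-RNAi course. Their change from 92 h to 116 h had 3232 called genes (27.0%), 13.2% higher and 13.8% lower. Of the 2289 genes with a net rise in avl-RNAi discs, 1147 also rose in control discs, which is 50.1% of the first list and 72.4% of the second. For the falls the shared number was 1245, 51.6% of the avl-RNAi list and 75.5% of the control list. Only 102 of the rises and 33 of the falls were called in the opposite direction in control discs. The difference between the 2 courses was called for 1303 genes, 10.9% of those tested, 699 of them higher (5.83%) and 604 lower (5.04%) in the avl-RNAi course. With no 168 h control among the groups, age and genotype cannot be told apart in this difference.

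**Figure D5:**
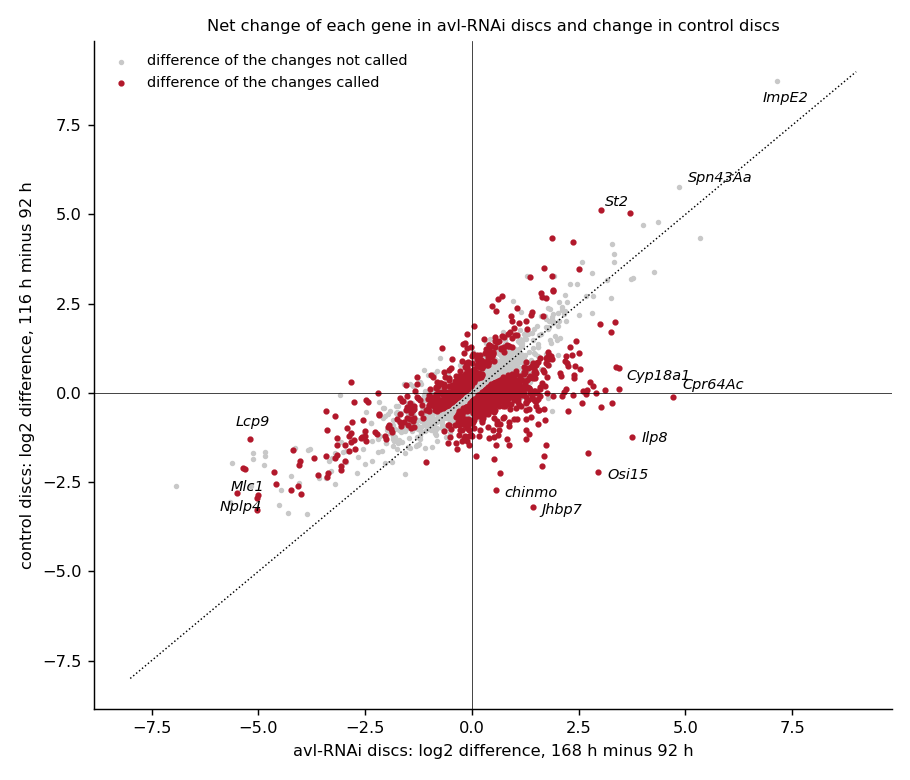
Log2 difference of each of 11982 genes in avl-RNAi discs (168 h minus 92 h, horizontal axis) and in control discs (116 h minus 92 h, vertical axis), with the dotted line marking equal change; red points had a called difference between the courses. ImpE2 and Spn43Aa lie near the line, and Ilp8, Osi15, Jhbp7 and chinmo lie below 0 in control discs and above 0 in avl-RNAi discs.

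Several of the largest rises occurred in both courses. The end level of ImpE2 in avl-RNAi discs was 12.54, 12.55 and 12.05, against 13.19, 13.35 and 13.56 in control discs, and its courses differed by -1.59 ± 0.51 (adjusted p = 0.0676). Without avl-RNAi 92 h replicate 1, its lowest array at that age, the ImpE2 difference was called (-2.07, adjusted p = 0.0046). For Spn43Aa the difference was -0.91 ± 0.33, for Cpr49Ac -0.43 ± 0.45 and for ImpE3 -0.57 ± 0.26, none of them called. St2, a sulfotransferase gene, rose by 3.71 ± 0.15 in the avl-RNAi course and by 5.04 in the control course, and this difference was called (-1.33 ± 0.21, adjusted p = 0.0011). Replication genes had median changes of -0.34 in avl-RNAi discs and -0.36 in control discs, and a difference between the courses was called for 1 of 30. Of 69 mitochondrial ribosomal protein genes 23 had a called lower difference between the courses and 1 a called higher one. On the ecdysone response list 4 of 28 genes differed upwards and 4 downwards.

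Some rises were not called in control discs, or were set against a fall there. Cpr64Ac stood at 5.77, 5.60 and 5.56 in control discs at 116 h, against 5.72, 5.61 and 5.92 at 92 h, and its courses differed by 4.82 ± 0.12 (adjusted p = 7.95e-11). Cyp18a1 differed between the courses by 3.33 ± 0.20 (adjusted p = 2.15e-07), and Actbeta, at 3.47, 3.40 and 3.40 in control discs at 116 h, by 2.92 ± 0.14. Ilp8 fell in control discs to 4.66, 4.51 and 4.60 at 116 h, against 5.99, 5.75 and 5.72 at 92 h, so its courses differed by 4.99 ± 0.22 (adjusted p = 1.48e-08). In chinmo the control level fell to 6.84, 6.92 and 6.65 at 116 h, against 9.51, 9.49 and 9.54 at 92 h, and the courses differed by 3.27 ± 0.16 (adjusted p = 3.11e-08). Jhbp7 and the Osiris genes Osi15 and Osi14 had the same opposed pattern, with differences of 4.61 ± 0.31, 5.18 ± 0.27 and 3.69 ± 0.20. All 10 JNK-responsive genes with a called difference between the courses were higher in the avl-RNAi course, though some, such as Pvf1, also rose in control discs (0.83, adjusted p = 6.01e-05). ImpL2 was not called in control discs and differed between the courses by 2.43 ± 0.29, while daw rose in both and differed by 1.499 ± 0.27.

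On the lower side, the 5 largest called differences between the courses among genes with more than a number for a name were of Lcp9 (-3.90 ± 0.67), Mlp60A (-3.26 ± 0.26), Mlc1 (-3.19 ± 0.37), Lcp65Ac (-2.89 ± 0.28) and Nplp4 (-2.69 ± 0.28). Mlp60A and Mlc1 belong to the muscle list, so its mean is not independent of them. That mean was 6.60 ± 0.25 in control discs at 116 h and 7.51 ± 0.15 at 92 h (SD, n = 3 each). The patterning gene Dll fell in avl-RNAi discs and rose by 0.49 in control discs (adjusted p = 0.0136), a difference of -1.44 ± 0.19. The change of vg in control discs was 0.27 and not called, and its courses differed by -1.003 ± 0.13. Of 11 notum genes 10 rose in control discs and 4 in avl-RNAi discs, and 5 differed between the courses, all lower in the avl-RNAi course. With the gut, muscle and fat body means as covariates 125 genes still differed between the courses. Among them were Osi15, Jhbp7, Cpr64Ac, Ilp8, Osi14, chinmo, Cyp18a1, GstE6, firl, Actbeta, upd1, Ets21C and Mlp60A. In that fit Mlp60A stood at -1.82 ± 0.33. Of the 5 genes with the largest lower differences, Lcp9, Mlc1, Lcp65Ac and Nplp4 were no longer called in it. How far the tissue means account for these differences was not tested.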

How the data were processed

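RNA from wing discs (200 ng of total RNA per sample, biotin labelled, per the labels' protocols) was hybridised to 1-colour Affymetrix arrays, 3 for each of 5 groups. The authors deposited 1 table of log2 values for 18952 probe sets. Partek and limma are named per the submitters' processing notes, without version or role. Background correction and normalization are not given in the sources used here, values ran from 2.81 to 14.51, from which base 2 was taken, and depth does not apply to arrays, whose number limits the precision. The deposited values were not normalized again.

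The platform annotation gave 13647 probe sets 1 symbol, 402 several and 4903 none, and symbols were updated through gene identifiers. Of genes with several probe sets, the one with the highest mean over all arrays was used, which left 11982 genes. limma 3.58.1 in R 4.3.3 was fitted to all 15 arrays with group means (10 residual degrees of freedom), 2-sided, with Benjamini-Hochberg adjustment over all genes for each of 5 comparisons. The fit was tested on simulated data. Of 1094 genes with several probe sets, 484 were called, and in 154 of those the probe sets differed in sign. Any comparison of arrays covers the spread between these samples.

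Genes were named by rule. Some were always named (such as Ilp8, upd1 and ImpE2). The 12 largest rises and 12 largest falls without overlap between groups were named. So were 12 falls, also without overlap, of genes still above the mean of all genes. Further names were 5 genes for each turning path, 5 for each direction of the course difference, and up to 4 members per list by adjusted p. Genes known only by a number were left out of the ranked parts. The members and lists were chosen with earlier results of these data known. Alternatives covered other scalings, filters on low values, probe set rules, array weights, priors, fewer groups, tissue values as covariates and single arrays left out. A planned search of promoters for motifs was not run.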

Additional observations from a re-analysis of the deposited data

Results flagged for a closer look

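In 15 named genes the net change of avl-RNAi discs and the change of control discs were both called, in opposite directions. The courses span 76 h and 24 h, so age and genotype cannot be told apart in the size of each difference. The log2 difference between the courses was 4.99 ± 0.22 for Ilp8, 2.48 ± 0.16 for upd1 and 3.27 ± 0.16 for chinmo. It was 4.61 ± 0.31 for Jhbp7, 5.18 ± 0.27 for Osi15 and 3.69 ± 0.20 for Osi14. Among glutathione transferase genes it was 3.46 ± 0.15 for GstE6, 2.04 ± 0.14 for GstE1 and 1.88 ± 0.17 for GstE5. The other genes higher in the avl-RNAi course were moody at 2.42 ± 0.14, JhI-26 at 2.00 ± 0.24, Def at 1.79 ± 0.24 and dl at 0.81 ± 0.09. Dll at -1.44 ± 0.19 and the vacuolar ATPase gene Vha100-2 at -0.43 ± 0.07 were lower. With the gut, muscle and fat body means as covariates the difference was still called for 10 of the 15, namely Ilp8, upd1, chinmo, Jhbp7, Osi15, Osi14, GstE6, GstE1, moody and dl. The net change of dl was not called with the mean of its probe sets.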

How the results depend on the processing

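With the gut, muscle and fat body means as covariates the calls dropped to 26 over the whole course, 1962 in the first leg, 20 in the second, 125 between the courses and 5 list members, although 4029 of the 4702 genes kept their direction. With the muscle mean alone, an alternative chosen after seeing the data, they were 109, 2356, 141, 278 and 27, with 4125 keeping direction. Net differences that turned with the muscle mean were SP1029 at -0.23, Syp at -0.60, Hex-A at -0.088, Jon25Biii at 0.76, Sgs4 at -0.35, RpS5b at 0.20 and RpL34a at 0.043. With all 3 means they were Jon65Aiv at 0.52, Jon65Aiii at 1.61, yip7 at 0.87, LysS at 0.79, l(2)efl at 0.36, Lsp2 at 0.43, Fkbp14 at -0.19, SP1029 at -0.51, Syp at -0.47, Hex-A at -0.038, Gapdh1 at 0.17, Jon25Biii at 0.94 and Sgs4 at -1.45, as was the course difference of Vajk2 at 0.21. Jon65Aiv, Jon65Aiii, LysS and Jon25Biii belong to the gut list and Lsp2 to the fat body list. For these genes a covariate includes the gene itself, so their turn is partly built in. The median standard error of the net change was 0.34 with all 3 means and 0.31 with muscle alone, against 0.074 without them. An adjusted p under 0.01 left 2091 genes in the second leg and 662 between the courses, and leaving out both control arrays with unusual gut transcripts, also chosen after seeing the data, left 762 between the courses. Leaving out single arrays gave 4085 to 4414 genes over the whole course, 3739 to 4146 in the first leg, 2533 to 3267 in the second, 949 to 1182 between the courses and 597 to 625 list members. A replicate block gave 4698, 4197, 3172, 1211 and 655. Same-numbered arrays did not deviate together consistently (correlations of -0.409 to 0.501 over 30 pairs, 9 above 0.1), so the numbers were not taken as pairs. Some pairs did deviate together. The correlation was 0.501 for replicate 1 of avl-RNAi and control discs at 92 h. It was 0.496 for replicate 3 of control discs at 92 h and 116 h. Of 206 named net calls, 205 stayed called with median centring and with ribosomal protein centring, and 206 with quantile normalization. None of them changed direction in these 3 settings. The number of arrays limits what can be called, and no signal over background was given.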

Other observations

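Genes of detoxification and metal binding moved in both directions over the whole course. These family counts stand beside 19.1% of all genes called higher and 20.1% called lower. Of 34 glutathione transferase genes 10 rose and 6 fell. GstE6 had 10.33, 10.16 and 10.29 at 168 h, against 8.41, 8.86 and 8.41 at 92 h, while it fell by 1.76 in control discs between 92 h and 116 h. Of 83 cytochrome P450 genes 8 rose and 17 fell, the falls being near the share of all genes, and of 4 metallothionein genes 2 fell and none rose, with MtnA at -2.81. Of 25 Rab genes 8 rose and none fell, and of 31 vacuolar ATPase genes 2 rose and 8 fell.

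Genes known only by a number made up 5305 of the tested genes. Of these, 766 were called higher and 899 lower, including 108 higher and 114 lower by at least 2-fold. Over all genes 19.1% were called higher and 20.1% lower, including 2.6% higher and 2.15% lower by at least 2-fold. CG13053, chosen after its values were seen, had 9.32, 9.36 and 9.53 at 168 h, against 5.08, 5.15 and 5.22 at 92 h. CG34247, chosen likewise, had 8.81, 8.70 and 8.77 at 168 h, against 5.33, 5.38 and 5.46 at 92 h, and stood at 6.07, 6.08 and 6.63 in control discs at 116 h. CG13067, also chosen after its values were seen, was lower, with 6.11, 6.62 and 6.46 at 168 h, against 11.67, 11.32 and 11.32 at 92 h.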
